A study of Cucurbita pepo with 18 samples.

Results

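RNA of the seed coat was compared between a hull-less (HL) and a hulled (H) accession of *Cucurbita pepo* at 20 days after pollination (DAP). The comparison used 6 of the 18 RNA-seq libraries of the experiment, chosen by their sample labels, with 3 biological replicates of each accession. The other 12 libraries, from the same accessions at 5 and 10 DAP, were used only to show where 20 DAP differed. H and HL are the parents of the F2 population in which the hull-less trait was mapped, and neither received a treatment. The study reports that HL carries an insertion in an exon of *CpNST1* (Cp4.1LG12g04350), which a table of counts cannot show. Each accession is a single line, so any other difference between the lines cannot be told apart from that of *CpNST1*. The labels do not say how many fruits went into a library.

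A pumpkin seed coat develops from the integuments of the ovule as several cell layers. In hulled seeds some of these layers deposit a secondary cell wall of cellulose, xylan, and lignin, which hardens the hull. In *Arabidopsis*, NAC transcription factors of the NST, SND, and VND types switch on this program. They act through MYB factors that in turn activate the enzymes of all these polymers. Other layers of a cucurbit seed coat stay thin-walled, and the innermost ones can form a green, chloroplast-containing tissue.

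The marker that the study designed at *CpNST1* on LG12 is shown first, because it is the DNA by which the alleles of the accessions were told apart. Capitals mark the bases that pair with the genomic site, 27 in each of the allele oligos, and lower case marks the 21-base tail that 25 markers share. The allele oligos differ at 1 position in the capitals, and which of them reads the hull-less allele is not stated.
CpM25-FAX: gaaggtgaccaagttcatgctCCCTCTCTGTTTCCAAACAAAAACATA
CpM25-HEX: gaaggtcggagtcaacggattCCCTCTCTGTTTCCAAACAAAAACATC
CpM25-R: GAGGGACTTGGGAGTGGCCATT

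The transcript of this gene was more abundant in the hull-less seed coat. *CpNST1* (Cp4.1 genome, LG12, positions 3411999 to 3413380, plus strand) had 42.4, 27.7, and 31.6 normalised read counts (CPM, counts scaled to a common library size) in the hulled libraries and 141, 156, and 189 CPM in the hull-less ones. All hull-less libraries lay above all hulled ones, as was true in 1 or the other direction of 56.9% of the tested genes. The log2 fold change, positive where HL was higher, was 2.25 ± 0.20 (SE, n = 3 per accession, adjusted *p* = 0.00029, edgeR quasi-likelihood test, Benjamini-Hochberg).

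Across the genome 21973 of 29484 features had enough counts to be tested. Genes were called when the adjusted *p* was 0.05 or lower and the log2 fold change was 1 or more in size. By this rule 1839 genes (8.37% of those tested) were higher in the hull-less seed coat and 2789 (12.7%) were lower, which makes 4628 called genes (21.1%). The median log2 fold change was 1.59 among the higher genes and −2.11 among the lower ones, against −0.007 over all tested genes. Changes of 3 or more on the log2 scale were seen in 248 higher and 838 lower genes. The higher genes held 5.83% to 6.33% of all counts in the hulled libraries and 18.3% to 22.1% in the hull-less ones. The lower genes held 13.4% to 14.3% in the hulled libraries and 2.37% to 3.07% in the hull-less ones.

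The total count was 13827773 to 15224636 in the hulled libraries and 17147127 to 18017335 in the hull-less ones. A count of 3 or fewer was treated as not detectable, a floor that equals 0.173 to 0.212 CPM and covers counting error only. Across genes, Pearson's *r* of log2 CPM was 0.965 to 0.976 between hulled libraries, 0.944 to 0.970 between hull-less ones, and 0.799 to 0.854 between the accessions, as a description of genes that are not independent. Hull-less replicate 3 had the lowest normalisation factor (0.86), the fewest features above the floor (21474, against 22393 to 23619 in the others), and the lowest *r* with every hulled library. The storage protein and oil body genes of embryo and endosperm, other tissues of the seed, summed to 9270, 7390, and 1700 CPM in the hulled libraries and 3260, 489, and 301 CPM in the hull-less ones, ranges that overlap. In this list 0 of 32 tested genes were higher and 5 were lower, and their part in the results was not tested. The phloem list summed to 154 to 183 CPM in hulled and 220 to 237 CPM in hull-less libraries, although 5 of its 11 tested genes were lower and 1 higher (median −0.89). The xylem vessel list summed to at most 2.94 CPM in any library. Its only tested gene was lower and at or under the floor in every hull-less library. The seed coat flavonoid list, taken as a marker of the labelled tissue, summed to 300 to 407 CPM in the 6 libraries. Of its 3 tested genes 1 was lower and 0 higher (median −0.93). In bulk tissue fewer cells of a type and less RNA per cell cannot be told apart.

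**Figure D1:**
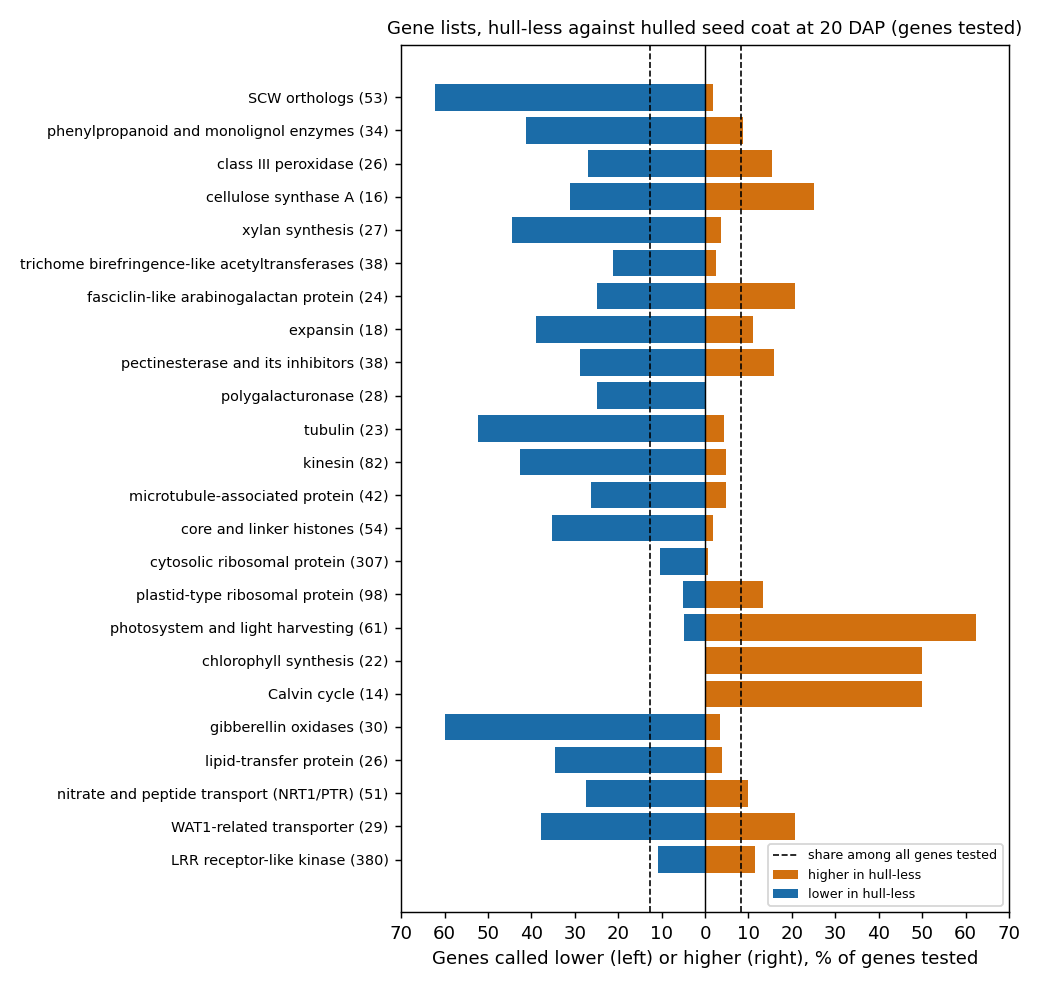
Share of the tested genes of 24 gene lists that were called lower (bars to the left) or higher (bars to the right) in hull-less than in hulled seed coat at 20 DAP, in %, with the number tested in parentheses and dashed lines at 12.7% and 8.37%, the shares among all tested genes. The longest bars to the left belong to the secondary cell wall (SCW) orthologs (33 of 53) and the gibberellin oxidases (18 of 30), and the longest to the right to the photosystem genes (38 of 61).

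Lignin enzymes were mostly lower in the hull-less seed coat. The question was which genes of the wall polymers differ between a seed coat that forms a hull and one that does not. Among 10 tested orthologs of lignin genes in the study's list 8 were lower and 0 higher (median −2.71 on the log2 scale). Of laccases, which oxidise monolignols, 0 of 2 tested were called. Of genes described as dirigent proteins 1 of 9 was higher and 0 lower. That list leaves out a disease resistance response protein 206 gene of the same family (Cp4.1LG01g00150). This gene was at or under the floor in every hull-less library. *CAD1* (Cp4.1LG01g02490), which reduces cinnamaldehydes to the alcohols that are polymerised into lignin, had 608, 653, and 643 CPM in hulled seed coats and 0, 0.231, and 0 CPM in hull-less ones. Its log2 fold change was −12.81 ± 0.56 (adjusted *p* = 2e-05, edgeR), and −16.26 without hull-less replicate 2, the only hull-less library with counts.

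Caffeoyl-CoA methylating enzymes of the same pathway were lower as well. *CCoAOMT1* (Cp4.1LG15g04800), which methylates caffeoyl-CoA on the way to guaiacyl lignin, had 205, 133, and 219 CPM in hulled and 0.655, 0.75, and 0.198 CPM in hull-less libraries (−8.39 ± 0.40, adjusted *p* = 3e-05, edgeR). A second gene annotated as caffeoyl-CoA O-methyltransferase, Cp4.1LG04g08040, had 363, 327, and 374 against 10.9, 6.58, and 4.03 CPM (−5.63 ± 0.37). In both genes every hull-less library was far below every hulled one. In contrast, *CAD6* (Cp4.1LG02g08130) was higher, at 36.8, 42.9, and 53.3 against 141, 149, and 158 CPM (1.75 ± 0.15).

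In the wider list of phenylpropanoid and monolignol enzymes, drawn from the deposited descriptions, 14 of 34 tested genes were lower and 3 higher (median −0.84). The features that hold an aromatic amino acid lyase domain, the domain of phenylalanine ammonia-lyase at the entry of the pathway, were added after their values were seen. Of 5 tested, 4 were lower and 0 higher. The most abundant, a feature outside the annotation on LG16 (positions 6169988 to 6173246, minus strand), had 507, 358, and 489 CPM in hulled and 14, 28.3, and 18.9 CPM in hull-less libraries (−4.47 ± 0.31, adjusted *p* = 0.00012, edgeR). These lyase genes are near-identical in many plants, and counting could split reads among copies, so their single values are uncertain.

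Class III peroxidases, some of which couple monolignols in the wall, went both ways, with 7 of 26 tested genes lower (4 without hulled replicate 3) and 4 higher. *Peroxidase N1* (Cp4.1LG15g02380) had 350, 389, and 499 CPM in hulled and 14.6, 6.58, and 0.132 CPM in hull-less libraries. Its log2 fold change was −5.86 ± 1.06, and −6.91 without hull-less replicate 1. *Peroxidase 43* (Cp4.1LG15g02520) had 537, 540, and 503 against 78, 81.5, and 150 CPM (−2.35 ± 0.27). *Peroxidase 10* (Cp4.1LG10g02630) was higher, at 35, 24.1, and 40.1 against 206, 267, and 248 CPM (2.86 ± 0.22, adjusted *p* = 0.00017, edgeR).

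Cellulose genes were called in both directions. Of 16 tested cellulose synthase A (CesA) genes 5 were lower, 4 higher, and 7 not called. The orthologs of the catalytic subunits known in *Arabidopsis* for secondary walls were among the lower ones. *CesA4* (Cp4.1LG12g10230) had 783, 593, and 686 CPM in hulled and 15.3, 13.2, and 12.8 CPM in hull-less libraries (−5.65 ± 0.18, adjusted *p* = 8.4e-06, edgeR). *CesA7* (Cp4.1LG00g03460) had 120, 108, and 112 against 0.477, 0.404, and 0.198 CPM (−8.25 ± 0.22). *CesA8* (Cp4.1LG20g04780) had 33.9, 22.7, and 34.4 against 0.715, 0.115, and 0.198 CPM (−6.43 ± 0.48, and −7.54 without hull-less replicate 1). In all 3 the libraries of the accessions were more than an order of magnitude apart.

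The higher CesA genes named by the rule carry the names of subunits known for primary walls, and their changes were smaller in size. *CesA1* (Cp4.1LG06g03510) had 140, 143, and 165 CPM in hulled and 313, 316, and 358 CPM in hull-less libraries (1.13 ± 0.13, adjusted *p* = 0.00082, edgeR). *CesA3* (Cp4.1LG19g00610) had 133, 127, and 129 against 297, 321, and 283 CPM (1.21 ± 0.11). *CesA2* (Cp4.1LG02g09460) had 76.7, 87.3, and 148 against 356, 276, and 238 CPM (1.48 ± 0.28). The chitinase-like proteins that support cellulose deposition in *Arabidopsis* also went both ways. *CTL2* (Cp4.1LG03g11750) fell from 947, 787, and 938 CPM in hulled to 12.6, 13.4, and 9.77 CPM in hull-less libraries (−6.23 ± 0.20). *CTL1* (Cp4.1LG08g05710), the relative known from primary walls, had 79.1, 79.3, and 79.2 against 279, 280, and 242 CPM (1.75 ± 0.11, adjusted *p* = 8.4e-05, edgeR).

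Xylan genes gave 12 lower and 1 higher gene of 27 tested (median −0.82). *GUX2* (Cp4.1LG11g01550), which adds glucuronic acid side chains to xylan, had 37.5, 27, and 33.7 CPM in hulled libraries and 0 counts in each hull-less one, at least 165-fold lower with the floor of 3 counts per library. *GXM1* (Cp4.1LG09g10680), which methylates those side chains, was also at 0 in all hull-less libraries and at least 100-fold lower. *IRX9* (Cp4.1LG03g01800), needed to extend the xylan backbone of secondary walls, had 140, 106, and 128 against 0.774, 0.462, and 0.594 CPM (−7.66 ± 0.22, adjusted *p* = 7.1e-06, edgeR). Its relative *IRX9L* (Cp4.1LG02g03720) was not called, at 12.4, 14.7, and 15 against 21.6, 22.7, and 22.2 CPM (0.66 ± 0.12). The pair *IRX10* (Cp4.1LG03g13340, −3.29 ± 0.17) and *IRX10L* (Cp4.1LG04g16300, 0.52 ± 0.11, not called) had the same order. Among trichome birefringence-like proteins, many of which acetylate wall polymers, 8 of 38 were lower and 1 higher. *TBL3* (Cp4.1LG10g07950) had 56.5, 64.8, and 60.6 CPM in hulled libraries and was at or under the floor in every hull-less one, at least 306-fold lower.

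Wall glycoproteins were called in both directions. Of 24 fasciclin-like arabinogalactan proteins (FLAs) 6 were lower (3 without hulled replicate 2 and 3 without hulled replicate 3) and 5 higher. *FLA12* is known for stem fibre walls in *Arabidopsis*, and its copy Cp4.1LG02g12840 had 98.5, 97, and 89.3 CPM in hulled libraries and 0 counts in all hull-less ones, at least 479-fold lower. The other copy, Cp4.1LG20g08990, was at least 481-fold lower. *FLA2* (Cp4.1LG15g06870) had 4.74, 3.82, and 5.51 CPM in hulled and 96.7, 77.9, and 68.9 CPM in hull-less libraries (4.1 ± 0.19, adjusted *p* = 3e-05, edgeR). *COBL4* (Cp4.1LG04g14420), a membrane-anchored protein of secondary wall cellulose assembly, had 68.7, 52.6, and 61.5 against 0.596, 0.346, and 0.198 CPM (−7.28 ± 0.28).

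**Figure D2:**
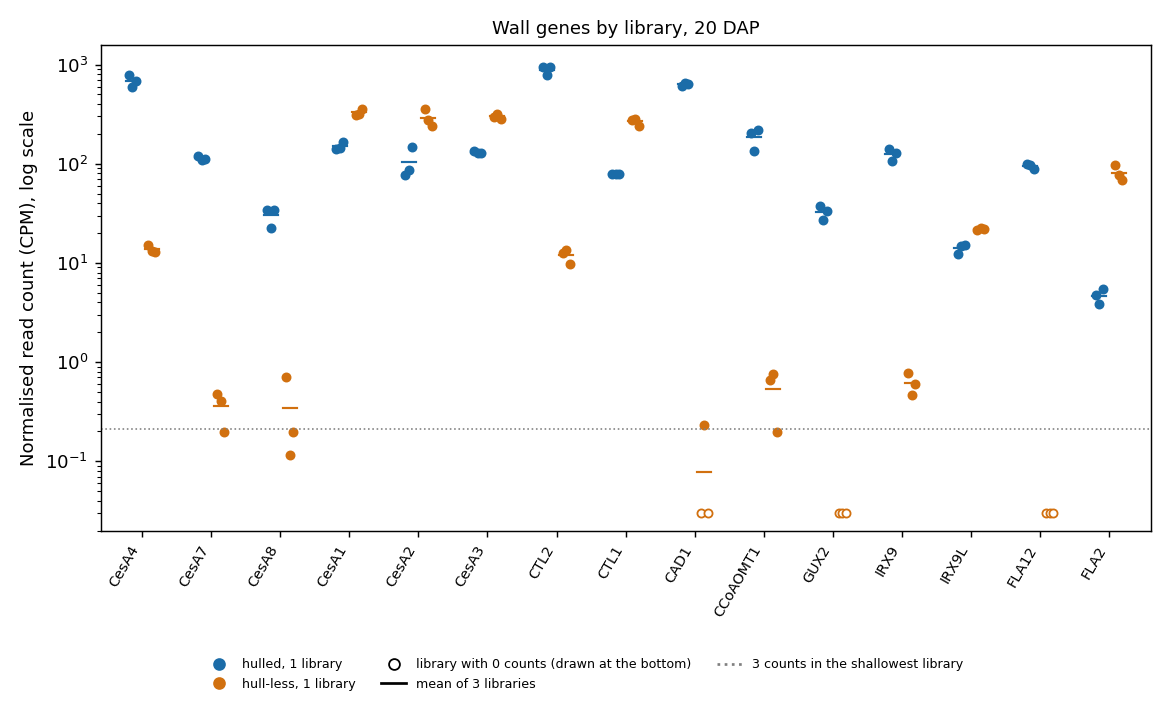
Normalised read count (CPM, log scale) of 15 wall genes at 20 DAP, 1 point per library, blue for hulled and orange for hull-less, with a short line at the mean of 3 libraries, open circles for libraries with 0 counts, and a dotted line at 3 counts in the shallowest library. *CesA4*, *CesA7*, *CesA8*, *CTL2*, *CAD1*, *CCoAOMT1*, *GUX2*, *IRX9*, and *FLA12* were lower in hull-less libraries, while *CesA1*, *CesA2*, *CesA3*, *CTL1*, and *FLA2* were higher and *IRX9L* was not called.

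Genes that loosen or remodel walls were lower more often than higher. Expansins, which loosen the wall during growth, gave 7 lower (11 without hull-less replicate 1) and 2 higher genes of 18 tested (median −1.91). *Expansin-A2* (Cp4.1LG01g22140) had 23, 11.5, and 26.5 CPM in hulled and 1.61, 2.08, and 0.99 CPM in hull-less libraries (−3.70 ± 0.40). *Expansin-A8* (Cp4.1LG13g07620) was the reverse, at 36.7, 35.1, and 29.6 against 187, 266, and 75 CPM (2.37 ± 0.42, adjusted *p* = 0.005, edgeR). Polygalacturonases, which cut pectin, gave 7 lower and 0 higher of 28, and pectinesterases with their inhibitors gave 11 lower and 6 higher of 38.

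A single pectinesterase gene had most of the counts of its list in hull-less seed coats. Pectinesterases take methyl groups off pectin in the wall. *Pectinesterase/pectinesterase inhibitor U1* (Cp4.1LG12g09640) had 6.91, 11.8, and 0.898 CPM in hulled and 1020, 881, and 1510 CPM in hull-less libraries. Its log2 fold change was 7.44 ± 0.88 (adjusted *p* = 0.001, edgeR) and 8.18 without hulled replicate 2. The whole list summed to 883 to 1060 CPM in hulled and 1530 to 2100 CPM in hull-less libraries. *Probable pectinesterase 53* (Cp4.1LG01g06800) was lower, at 18.5, 27.3, and 23.9 against 1.19, 1.44, and 0.264 CPM (−4.56 ± 0.46).

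Microtubule genes were lower as a group. Cortical microtubules guide the cellulose synthases, and kinesins move along microtubules in dividing and expanding cells. Of 23 tested tubulin genes 12 were lower and 1 higher (median −1.45). A tubulin beta chain gene, Cp4.1LG18g02050, had 253, 198, and 258 CPM in hulled and 6.79, 5.14, and 6.14 CPM in hull-less libraries (−5.30 ± 0.18, adjusted *p* = 8.6e-06, edgeR). Tubulin genes are near-identical to each other, so reads could be split among them. Of 82 kinesins 35 were lower and 4 higher (median −1.02), with 22 lower when hulled replicate 1 was left out and 21 when hulled replicate 2 was. *KIN-14I* (Cp4.1LG02g16330) had 35.4, 27, and 28.1 against 2.14, 2.14, and 0.99 CPM (−4.09 ± 0.29). *TORTIFOLIA1* (Cp4.1LG18g08240), a microtubule protein that affects the twist of growing organs, was also lower (−2.85 ± 0.23), whereas *MAP65-1* (Cp4.1LG00g02040), a microtubule bundler, was higher (1.38 ± 0.12).

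Genes of chromatin replication and of the cytosolic ribosome had medians under that of all genes. Of 54 core and linker histone genes 19 were lower and 1 higher (median −0.81). Only 9 were lower when hull-less replicate 2 was left out, and 8 when hulled replicate 2 was. *Histone H2A.6* (Cp4.1LG14g00050) had 33.4, 53.6, and 35.1 CPM in hulled and 12.2, 8.02, and 3.23 CPM in hull-less libraries (−2.38 ± 0.44). Of 68 cyclins 9 were lower and 5 higher, close to the shares of all genes. *Cyclin-H1-1* (Cp4.1LG10g02790), whose protein belongs to the kinase complex that activates other cyclin-dependent kinases, had 9.67, 10, and 8.14 against 111, 128, and 102 CPM (3.61 ± 0.14, adjusted *p* = 1.5e-05, edgeR). Among 307 cytosolic ribosomal protein genes 32 were lower (19 without hulled replicate 2) and 2 higher, with a median of −0.53. The lower share of 10.4% was under the 12.7% of all tested genes.

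Chloroplast genes were higher as a group in the hull-less seed coat. Of 61 tested genes of photosystems and light harvesting 38 were higher and 3 lower (median 1.29), in a list that summed to 4190, 4530, and 4820 CPM in hulled and 10700, 10800, and 12000 CPM in hull-less libraries. *PsbS* (Cp4.1LG13g04750), which lets photosystem II shed excess light as heat, had 1.41, 1.49, and 2.69 CPM in hulled and 48.6, 46.6, and 35.9 CPM in hull-less libraries (4.54 ± 0.27, adjusted *p* = 6.5e-05, edgeR). *PsaE* (Cp4.1LG11g06910), a stromal subunit of photosystem I, had 5.18, 4.32, and 3.91 against 34.9, 41.8, and 26.4 CPM (2.94 ± 0.21). A light-harvesting gene of photosystem I annotated as chlorophyll a/b-binding protein 3-1, Cp4.1LG18g02160, had 0 counts in each hulled library and 15.4, 24.4, and 25.1 CPM in hull-less ones, at least 102-fold higher. Among the 3 lower genes was 1 of 3 tested genes annotated as *CP26*, an antenna protein of photosystem II, of which the other 2 were higher. This gene, Cp4.1LG00g13120, had 12.8, 8.28, and 15.1 against 1.49, 1.27, and 0.99 CPM (−3.27 ± 0.30). It was also lower at 5 DAP (−5.81) and 10 DAP (−4.76), and it lies on unplaced sequence, where reads could be shared with another copy.

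Enzymes that serve the chloroplast were higher with the photosystems. Of 22 chlorophyll synthesis genes 11 were higher and 0 lower (median 1.01). *ChlH* (Cp4.1LG10g11560), the large subunit of the magnesium chelatase that commits porphyrin to chlorophyll, had 114, 88.6, and 85.6 CPM in hulled and 435, 451, and 462 CPM in hull-less libraries (2.22 ± 0.15, adjusted *p* = 0.00012, edgeR). *HEMA1* (Cp4.1LG11g05040), glutamyl-tRNA reductase at the entry of the pathway, had 71.1, 66.7, and 60 against 193, 191, and 279 CPM (1.74 ± 0.18). Of 14 Calvin cycle genes 7 were higher and 0 lower (median 1.21).

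The small subunit of Rubisco, the enzyme that fixes CO2, was higher from both genes named by the rule. Cp4.1LG09g03060 had 6.08, 6.08, and 6.92 CPM in hulled and 78.9, 92.6, and 86 CPM in hull-less libraries (3.75 ± 0.12, adjusted *p* = 8.4e-06, edgeR), and Cp4.1LG01g13630 had 40.1, 53, and 31.6 against 201, 232, and 235 CPM (2.42 ± 0.20). Plastid-type ribosomal proteins gave 13 higher and 5 lower of 98, with a median of 0.32. *CIA2* (Cp4.1LG13g09080), which in *Arabidopsis* promotes protein import into chloroplasts, was higher, at 2.43, 3.04, and 4.68 against 23.4, 19.5, and 22.3 CPM (2.67 ± 0.25).

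Of 5 tested genes annotated as *APRR2*, 2 were higher, 1 was lower, and the others were not called. *APRR2* is a regulator of pigment and chloroplast formation in fruits of cucumber and other crops. Of the higher genes, the one named by the rule, Cp4.1LG05g02070, had 78.4, 46, and 92.6 CPM in hulled and 657, 600, and 655 CPM in hull-less libraries (3.13 ± 0.27, adjusted *p* = 0.00026, edgeR). The lower gene, Cp4.1LG15g03420, had 9.09, 7.29, and 8.66 CPM in hulled libraries and 0, 0.173, and 0 CPM in hull-less ones, at least 42.1-fold lower. Neither of these genes overlapped between the accessions, as was true of 56.9% of the tested genes. For Cp4.1LG05g02070 the naming rule requires this.

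**Figure D3:**
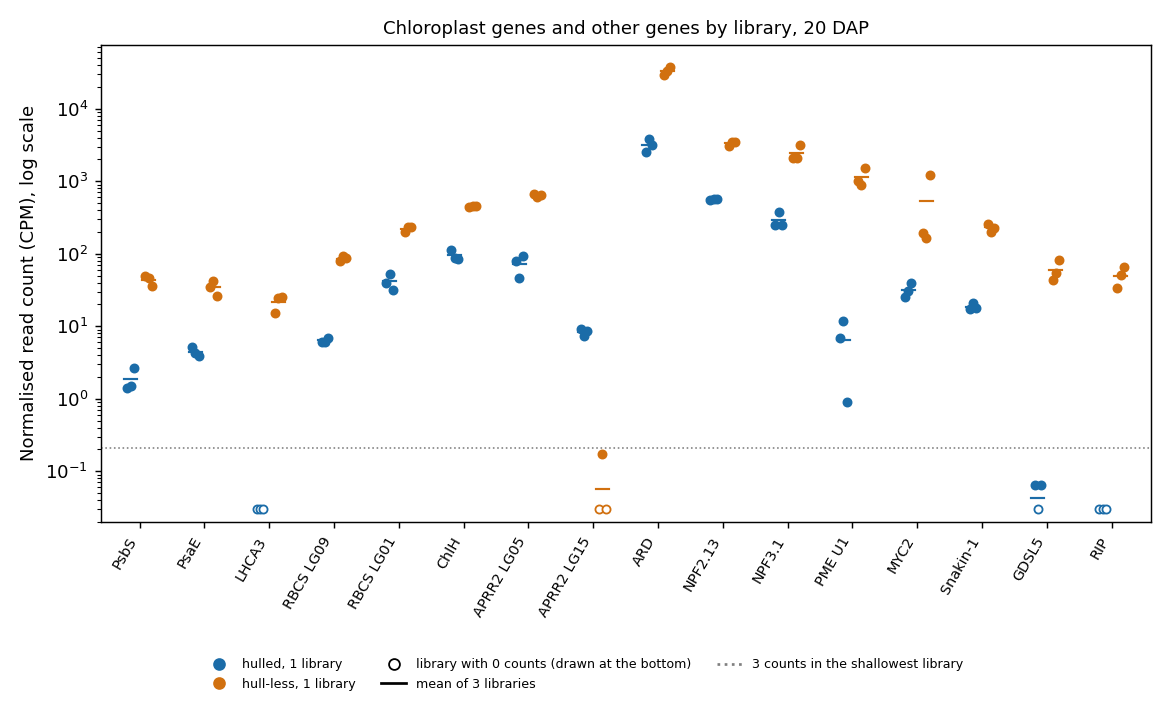
Normalised read count (CPM, log scale) of 16 chloroplast and other genes at 20 DAP, 1 point per library, blue for hulled and orange for hull-less, with a short line at the mean of 3 libraries, open circles for libraries with 0 counts, and a dotted line at 3 counts in the shallowest library. All but the *APRR2* gene on LG15 were higher in each hull-less library, from *ChlH* (log2 fold change 2.22) to genes with no counts in hulled libraries such as the light-harvesting gene LHCA3 and the ribosome-inactivating protein (RIP).

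Transcription factors were grouped by their domain, since the deposited family column holds domain names. Of 76 NAC genes 17 were lower and 12 higher, and of 170 MYB genes 33 were lower and 15 higher. The NAC genes nearest to *CpNST1* in function were scarce. The orthologs annotated as NAC30 (Cp4.1LG00g05400) and as NAC12 (Cp4.1LG05g07660 and Cp4.1LG00g00720), which are master switches of vessel or fibre walls in *Arabidopsis*, had at most 2.05 CPM in any library. They were at or under the floor in every hull-less library and at least 4.74-, 4.93-, and 8.41-fold lower. *NAC73* (Cp4.1LG20g04550), an ortholog of *SND2*, which acts further down the fibre network, had 101, 80.6, and 82.8 CPM in hulled and 5.9, 6.18, and 18.6 CPM in hull-less libraries (−3.12 ± 0.45, and −3.87 without hull-less replicate 3). A gene with a NAM domain, Cp4.1LG07g04310, had the opposite order, with 4.29, 4.17, and 4.94 against 68.8, 86.1, and 132 CPM (4.41 ± 0.28, adjusted *p* = 8.2e-05, edgeR).

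MYB genes of the same name were called in opposite directions. The 16 tested genes annotated as MYB44, a stress-responsive MYB in *Arabidopsis*, comprised 6 lower and 3 higher. The copy Cp4.1LG06g07790 had 125, 142, and 113 CPM in hulled and 1.61, 0.635, and 2.31 CPM in hull-less libraries (−6.40 ± 0.38, adjusted *p* = 6.3e-05, edgeR). The copy Cp4.1LG14g04400 had 8.77, 20.7, and 28.9 against 142, 110, and 235 CPM (3.06 ± 0.47). The ortholog of *MYB58* and *MYB63*, which activate lignin genes, was at 0 in all hull-less libraries (Cp4.1LG16g07120, at least 52.6-fold lower). The *MYB46* ortholog, the direct target of the NAC switches in *Arabidopsis*, was not tested, because its level was at most 0.192 CPM in any library.

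Several families stood above the background of 8.37% on the higher side, and some of them also above the 12.7% on the lower side. Of 47 AP2/ERF genes 11 were higher and 5 lower (13 without hull-less replicate 1), of 102 bHLH genes 17 and 13, of 59 WRKY genes 11 and 10, and of 37 CCT genes 8 and 6. Of 51 GRAS genes 10 were higher (6 when any hulled library was left out) and 1 lower (8 without hull-less replicate 1). WRKY (18.6% higher and 16.9% lower) and CCT genes (21.6% and 16.2%) exceeded the background in both directions. So did other families, such as the NAC genes (15.8% and 22.4%). *AP2* (Cp4.1LG10g02330), known in *Arabidopsis* for flower and seed coat development, had 198, 206, and 153 CPM in hulled and 516, 636, and 512 CPM in hull-less libraries (1.57 ± 0.17, adjusted *p* = 0.0007, edgeR). *SCL8* (Cp4.1LG13g02680), a GRAS gene, had 68, 88.6, and 65.5 against 224, 257, and 361 CPM (1.92 ± 0.22). *WRKY6* (Cp4.1LG10g09790), linked to senescence and phosphate starvation in *Arabidopsis*, had 28.4, 33.1, and 24.9 against 105, 119, and 158 CPM (2.14 ± 0.19).

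For a pair of stress-related factors the size of the difference moved with single libraries. *MYC2* (Cp4.1LG14g09600), the main activator of jasmonate responses, had 25.5, 30.4, and 39.9 CPM in hulled and 196, 166, and 1220 CPM in hull-less libraries. Its log2 fold change was 4.04 ± 0.84 (adjusted *p* = 0.009, edgeR) and 2.49 without hull-less replicate 3. *ERF4* (Cp4.1LG04g02810), an ethylene-responsive repressor, had 5.76, 9.69, and 19.4 against 98.2, 68.6, and 255 CPM. Its value of 3.59 ± 0.64 became 2.83 when hull-less replicate 3 and 4.19 when hulled replicate 3 was left out.

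Other families had more lower than higher genes, although most members were not called. Of 16 zinc finger homeodomain genes 5 were lower (9 when hull-less replicate 1 and 3 when hulled replicate 1 was left out) and 0 higher, and of 12 NF-YA genes 4 and 0. The shares were nearer to the 12.7% of all tested genes for B3 (6 of 36 lower, 16.7%, and 0 higher) and Dof genes (8 of 43 lower, 18.6%, and 1 higher). *ARF19* (Cp4.1LG11g06740), an auxin response factor, had 60.9, 62, and 57.3 CPM in hulled and 5.42, 11, and 12.9 CPM in hull-less libraries (−2.63 ± 0.29, adjusted *p* = 0.0008, edgeR). *TIFY 10b* (Cp4.1LG04g11060), of the family that represses jasmonate responses, had 152, 104, and 173 against 18.3, 18.1, and 17.6 CPM (−2.99 ± 0.20). Homeobox genes went both ways, with *BEL1-like homeodomain protein 2* (Cp4.1LG16g00500) at 177, 150, and 140 against 41.6, 45.8, and 39.4 CPM (−1.89 ± 0.13) and *BEL1-like homeodomain protein 1* (Cp4.1LG03g00420) at 96.8, 82.9, and 86.6 against 238, 266, and 277 CPM (1.55 ± 0.12).

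Groups of like-named regulators moved to the higher side, and both of the following were singled out after their values were seen. Of 5 tested genes annotated as KAN2, which in *Arabidopsis* helps to set the abaxial side of organs and the integuments, 4 were higher and 0 lower. The most abundant of the 4, Cp4.1LG05g00160, had 18.1, 14, and 16.3 CPM in hulled and 35.9, 48.6, and 45.7 CPM in hull-less libraries (1.42 ± 0.16). Of 6 tested genes annotated as CONSTANS-LIKE 16 4 were higher and 0 lower, and the largest change was that of Cp4.1LG01g17880 (3.22 ± 0.24).

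**Figure D4:**
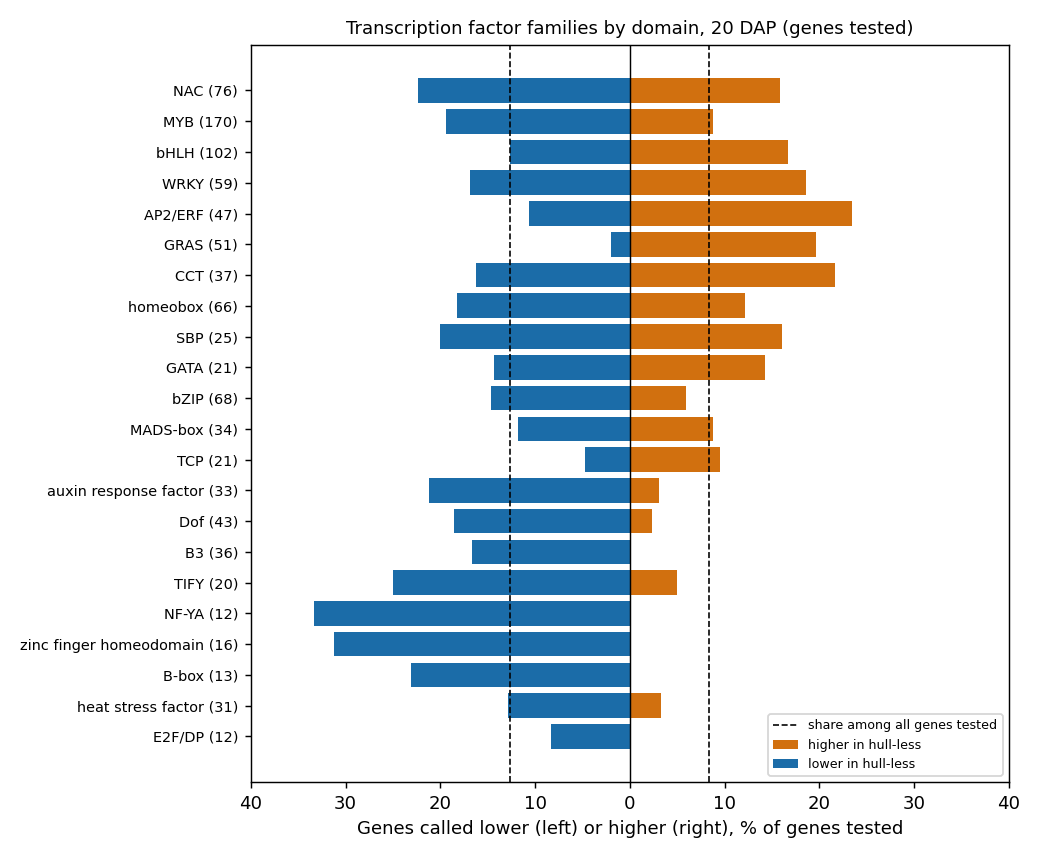
Share of the tested genes of 22 transcription factor families, grouped by protein domain, that were called lower (bars to the left) or higher (bars to the right) in hull-less than in hulled seed coat at 20 DAP, in %, with the number tested in parentheses and dashed lines at 12.7% and 8.37%, the shares among all tested genes. AP2/ERF (11 of 47), CCT (8 of 37), and GRAS (10 of 51) reach furthest to the right, and NF-YA (4 of 12) and zinc finger homeodomain genes (5 of 16) furthest to the left.

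Gibberellin oxidases had the lowest median of the hormone lists. These enzymes make or break active gibberellin, a hormone of seed and organ growth. Of 30 tested genes 18 were lower and 1 higher (median −3.04), and the list summed to 5662, 5260, and 8918 CPM in hulled and 1210, 742, and 183 CPM in hull-less libraries. The tested genes annotated as gibberellin 3-beta-dioxygenase 1, the step that yields the active hormone, numbered 12, of which 9 were lower. Cp4.1LG11g05760 had 213, 203, and 386 CPM in hulled and 24.7, 24.7, and 5.15 CPM in hull-less libraries (−3.88 ± 0.60, adjusted *p* = 0.003, edgeR). Its neighbour on LG11, Cp4.1LG11g05710, had 127, 115, and 231 against 12.3, 14.8, and 1.85 CPM (−4.03 ± 0.68). These neighbours are alike in annotation, and reads could be split among them.

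Markers of the inner seed moved in part with this list. *AGL62* (Cp4.1LG19g06160), a MADS gene known from *Arabidopsis* endosperm, had 59.7, 69.8, and 93.4 CPM in hulled and 24.7, 14.2, and 2.57 CPM in hull-less libraries (−2.43 ± 0.65), a call lost without hull-less replicate 2, hulled replicate 2, or hulled replicate 3. The storage list given above was lowest in hulled replicate 3, the hulled library with the highest gibberellin oxidase sum, whereas in the hull-less libraries both sums ranked the libraries alike (storage 3260, 489, and 301 CPM, gibberellin oxidases 1210, 742, and 183 CPM). The 11S globulin gene Cp4.1LG15g00840 had 1900, 1480, and 260 against 574, 10.9, and 4.22 CPM and was not called (−2.64 ± 1.69). The part of embryo or endosperm RNA in the gibberellin oxidase result was not tested.

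Auxin and cytokinin lists had larger shares of lower genes than the 12.7% of all tested genes, up to 29.4% for the SAUR and GH3 genes. In the auxin lists 5 of 17 SAUR and GH3 genes, 5 of 20 Aux/IAA genes, and 5 of 25 transport genes were lower. In the same order 1, 1, and 3 genes were higher. *PIN1a* (Cp4.1LG04g13660), an auxin efflux carrier, had 64.7, 64.2, and 68.3 CPM in hulled and 0.238, 0, and 0 CPM in hull-less libraries (−9.53 ± 0.47, adjusted *p* = 3.5e-05, edgeR, and −13 without hull-less replicate 1). *Auxin transporter-like protein 2* (Cp4.1LG03g02890), an influx carrier, was also lower (−2.91 ± 0.14). In the cytokinin list 11 of 58 genes were lower and 7 higher. *Histidine kinase 1* (Cp4.1LG14g10340) had 126, 104, and 91.9 against 2.09, 2.19, and 1.25 CPM (−5.86 ± 0.24). It is in the list by its description alone, and whether it senses cytokinin was not tested. *Cytokinin dehydrogenase 3* (Cp4.1LG18g03530), which breaks cytokinin down, had 731, 702, and 764 against 96.2, 129, and 21.1 CPM (−3.16 ± 0.59), while the response regulator *ARR9* (Cp4.1LG01g20550) rose from 507, 501, and 500 CPM in hulled to 1170, 1360, and 1250 CPM in hull-less libraries (1.32 ± 0.13). *Snakin-1* (Cp4.1LG11g01270), a small gibberellin-regulated antimicrobial peptide, had 17.3, 20.7, and 18.1 against 260, 202, and 228 CPM (3.62 ± 0.15, adjusted *p* = 1.7e-05, edgeR).

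The most abundant higher transcript belonged to sulfur metabolism. A 1,2-dihydroxy-3-keto-5-methylthiopentene dioxygenase gene (*ARD*, Cp4.1LG08g03950), whose enzyme recycles methionine, had 2560, 3870, and 3150 CPM in hulled and 29200, 33300, and 37900 CPM in hull-less libraries (3.38 ± 0.25, adjusted *p* = 0.00014, edgeR). Its mean FPKM was 2780 in hulled and 28800 in hull-less seed coats. Among lower transcripts the most abundant on this per-length scale was a gene with a domain of pollen Ole e I-like proteins, Cp4.1LG03g15420, with 10500, 7100, and 11000 CPM in hulled and 1920, 3150, and 2610 CPM in hull-less libraries (−1.90 ± 0.27). A germin-like protein gene of unplaced sequence, Cp4.1LG00g00490, had 1150, 1260, and 1160 CPM in hulled and 10.2, 21.1, and 14.4 CPM in hull-less libraries (−6.29 ± 0.31). Germin-like proteins are cell wall glycoproteins.

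An undescribed locus on LG15 was among the most abundant in hulled seed coats and nearly absent from hull-less ones. Cp4.1LG15g02110, from 1757491 to 1759618 on the plus strand, had 12600, 8800, and 5780 CPM in hulled and 0.179, 0.289, and 1.91 CPM in hull-less libraries (−13.51 ± 0.97, adjusted *p* = 0.00014, edgeR, and −15.2 without hull-less replicate 3). A feature outside the annotation, from 1764830 to 1821898 on the same strand of LG15, had 8690, 8430, and 6690 against 35.3, 46.2, and 64.3 CPM (−7.36 ± 0.33). Their mean FPKM fell from 4980 and 2020 in hulled to 0.433 and 12.3 in hull-less seed coats. Neither has a description in the table used here.

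Most transporter lists had more lower than higher genes, but ABC transporters gave 14 higher and 13 lower of 115. Of 51 genes of nitrate and peptide transport 14 were lower (27.5%) and 5 higher, with abundant members such as the following among the higher ones. *NPF2.13* (Cp4.1LG01g12770), which loads nitrate into phloem in *Arabidopsis*, had 548, 577, and 561 CPM in hulled and 3050, 3490, and 3480 CPM in hull-less libraries (2.57 ± 0.15, adjusted *p* = 5.9e-05, edgeR). *NPF3.1* (Cp4.1LG08g13570), known to carry gibberellin and nitrite, had 252, 373, and 252 against 2110, 2090, and 3140 CPM (3.06 ± 0.26). *NPF6.1* (Cp4.1LG08g06330) was lower, at 33.7, 29.6, and 35.5 against 1.55, 1.39, and 1.39 CPM (−4.51 ± 0.15). WAT1-related transporters gave 11 lower and 6 higher of 29, and lipid-transfer proteins gave 9 lower (5 without hull-less replicate 2) and 1 higher of 26. Genes annotated as the tonoplast aquaporin TIP1-1 were split, with Cp4.1LG10g04400 at 369, 541, and 425 against 1180, 1270, and 1040 CPM (1.38 ± 0.18) and Cp4.1LG19g03840 at 338, 356, and 379 against 99.1, 111, and 34.2 CPM (−2.14 ± 0.4).

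Flavonoid, redox, and protease genes were called in both directions. Of 20 flavonoid synthesis genes 6 were lower and 5 higher. A flavonol synthase (Cp4.1LG02g10200) had 287, 250, and 479 CPM in hulled and 28.1, 29.1, and 6.67 CPM in hull-less libraries (−4.0 ± 0.58, adjusted *p* = 0.0022, edgeR), while a flavonoid 3′-monooxygenase (Cp4.1LG03g15110) had 43.6, 52.9, and 47.5 against 217, 129, and 259 CPM (2.07 ± 0.26). *GSTU8* (Cp4.1LG10g08160), a glutathione S-transferase, had 6.85, 5.24, and 8.91 against 123, 147, and 191 CPM (4.45 ± 0.26). Among proteases *ASPG1* (Cp4.1LG04g14080) was lower, at 160, 268, and 139 against 4.94, 7.45, and 6.14 CPM (−4.94 ± 0.32), and the subtilase *SBT4.15* (Cp4.1LG08g10200) was higher, at 12.4, 13.7, and 12.9 against 145, 180, and 117 CPM (3.49 ± 0.18).

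Some genes were not detectable in one of the accessions at this depth. Among lower genes, 329 (1.50% of those tested) were at or under the floor in each hull-less library, and among higher genes 80 (0.364%) were so in each hulled library. Of these, 76 and 18 had a mean count of 100 or more in the other accession. Over the 76 the bound ran from at least 34.6-fold to at least 1800-fold lower, the largest that of the undescribed Cp4.1LG17g08970 with 433, 306, and 329 CPM in hulled libraries. A disease resistance response protein 206 gene (Cp4.1LG01g00150), whose family includes dirigent proteins that orient lignan coupling, had 149, 138, and 148 CPM in hulled libraries and was at least 732-fold lower. Over the 18 the bound ran from at least 28.3-fold to at least 282-fold higher. The largest was that of *GDSL esterase/lipase 5* (Cp4.1LG12g09490), and a type I ribosome-inactivating protein (Cp4.1LG17g10070) had 0 counts in all hulled libraries and 33.8, 50.3, and 64.6 CPM in hull-less ones, at least 234-fold higher.

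The earlier stages divided these genes further. Of the 76 genes at the floor in hull-less seed coats, 40 were also at or under it in every hull-less library at 5 and 10 DAP. Of those 40, 6 had a mean count of at least 100 in hulled seed coats at both earlier stages and 6 were at the floor in both accessions there. The other 36 had counts above the floor in HL at an earlier stage. *CYP78A3* (Cp4.1LG17g04440), of a P450 family that controls organ and seed size in *Arabidopsis*, had mean counts in HL of 2860 at 5 DAP and 1810 at 10 DAP. In H this gene fell too, with mean counts of 781 and 563 at these stages and 117 at 20 DAP. At 20 DAP it had 7.04, 9.69, and 6.73 CPM in hulled libraries and was at or under the floor in all hull-less ones, at least 39.5-fold lower. GDSL lipase genes annotated as At1g54790 were split, since Cp4.1LG11g09530 was at 0 in all hull-less libraries (at least 91.5-fold lower) and Cp4.1LG07g09170 was at 0 in all hulled ones (at least 60.2-fold higher).

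Most of the called genes were called at 20 DAP but not earlier, with the same thresholds in the fits of the other stages. At 5 DAP 1249 genes (5.53%) were higher and 1453 (6.43%) lower, and at 10 DAP 1144 (5.42%) and 1174 (5.56%). Of the 1839 genes higher at 20 DAP, 305 were also higher at 5 DAP (16.6%) and 402 at 10 DAP (21.9%), while 1206 were called in no direction at either stage. Of the 2789 lower genes 509 (18.3%) and 578 (20.7%) were also lower at these stages, and 1800 were called in no direction at either. Not all of these genes were tested at the earlier stages. At 5 and 10 DAP 1709 and 1702 of the higher genes and 2412 and 2254 of the lower ones were tested. The percentages are of all genes called at 20 DAP. Where a call is missing at a stage the stages need not differ, so the change in the accession effect was tested in a fit of all 18 libraries. Against 5 DAP the effect differed for 780 of the higher genes and 1247 of the lower ones in the direction of 20 DAP, and against 10 DAP for 473 and 787.

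Gene lists differed in when they parted. The photosystem genes gave 2 higher and 9 lower at 5 DAP (median −0.34), 8 higher and 2 lower at 10 DAP (0.63), and 38 and 3 at 20 DAP (1.29). Their accession effect was called higher at 20 than at 5 DAP for 39 genes and lower for 0 (background 6.03% and 7.85%), and against 10 DAP higher for 13 and lower for 3 (5.03% and 5.98%). Both accessions had their highest photosystem sums at 20 DAP. The gibberellin oxidases gave 3 higher and 3 lower at 5 DAP and 2 and 1 at 10 DAP, and the effect was called lower for 9 and higher for 0 against 5 DAP, and lower for 2 and higher for 0 of 36 tested against 10 DAP, near the background. At 5 DAP their sums of 232 to 254 CPM in H and 370 to 458 CPM in HL were far under the hulled sums of 20 DAP. The SCW orthologs summed to 2340 to 2410 CPM in hulled and 2020 to 2130 CPM in hull-less seed coats at 5 DAP, then to 3490 to 4710 and 2260 to 2500 CPM at 10 DAP. At 20 DAP they summed to 4873 to 5688 CPM in hulled and 2210, 2330, and 2500 CPM in hull-less libraries.

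**Figure D5:**
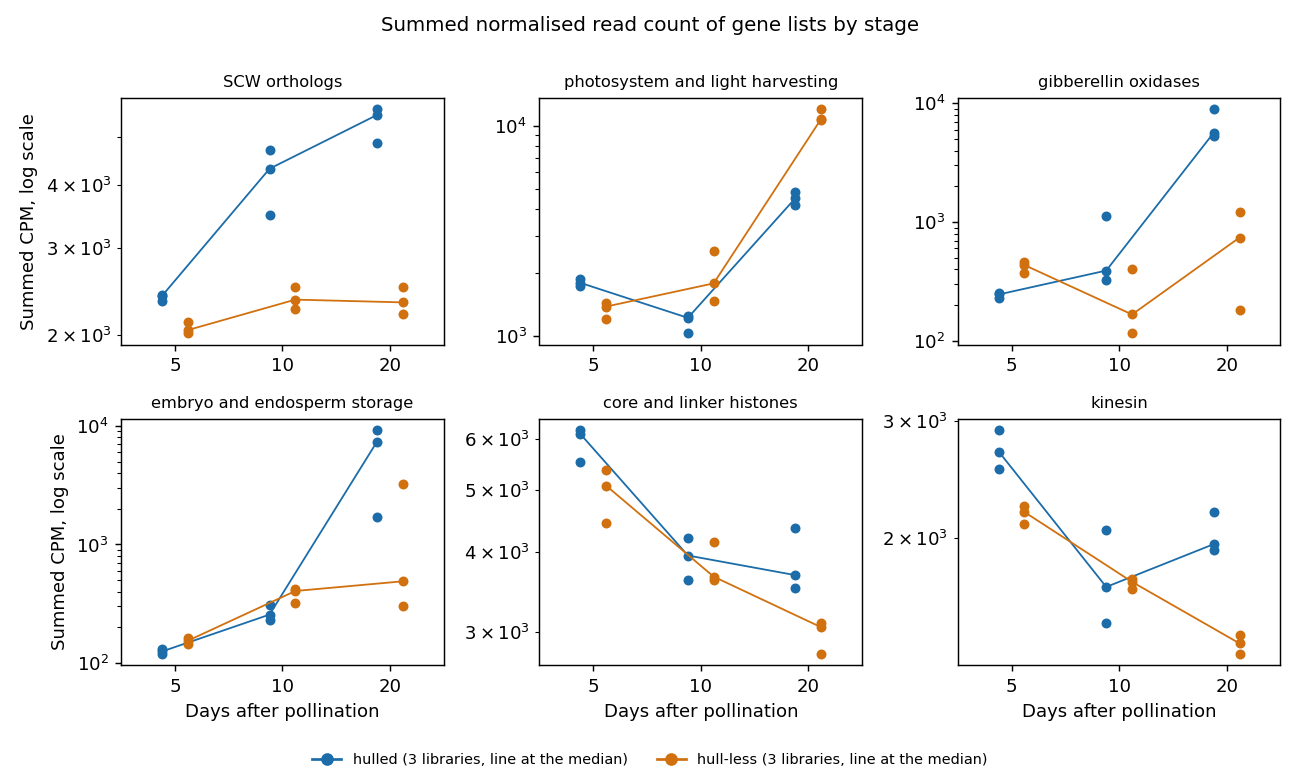
Summed normalised read count (CPM, log scale) of 6 gene lists at 5, 10, and 20 days after pollination, 1 point per library, blue for hulled and orange for hull-less, with lines through the medians of 3 libraries. The photosystem genes were higher in all hull-less libraries at 20 DAP, the gibberellin oxidases, SCW orthologs, kinesins, and histones were lower in all of them, and the storage genes overlapped between the accessions, at 1700 to 9270 CPM in hulled and 301 to 3260 CPM in hull-less libraries.

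Single genes showed each of these courses. *CesA4* had a log2 fold change of −0.19 at the youngest stage, −3.15 at 10 DAP, and −5.65 at 20 DAP, and the effect at 20 DAP differed from both earlier stages (adjusted *p* = 1.8e-06 and 0.001, edgeR). *APRR2* on LG05 had −1.20 at 5 DAP, 4.0 at 10 DAP, and 3.13 at 20 DAP, with a difference called against 5 DAP (adjusted *p* = 4.7e-05) but not against 10 DAP (adjusted *p* = 0.24). *60S ribosomal protein L15-2* (Cp4.1LG05g02690) was higher by nearly the same amount throughout, with 4.96, 4.76, and 4.83 at the 3 stages. *CpNST1* had −0.69 and −0.78 at 5 and 10 DAP against 2.25 at 20 DAP, and neither difference between stages passed the threshold (adjusted *p* = 0.11 and 0.06).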

How the data were processed

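The authors extracted total RNA with Trizol, sequenced it on an Illumina HiSeq 2000, and mapped the filtered reads to the zucchini genome (Cp4.1). They deposited a raw count per feature and library, whose counting tool is not given in the sources used here, and FPKM values made with Cufflinks per the methods. The authors' deposited group means, log2 fold changes, p-values, and adjusted p-values were not used. edgeR is named in the submitters' processing notes.

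From the counts, genes passing filterByExpr were scaled by TMM and tested with edgeR 4.0.16 (glmQLFit, glmQLFTest) in R 4.3.3 on the 6 libraries of a stage. The stages were compared by contrasts in a fit of all 18 libraries. The SE is the absolute log2 fold change over the square root of F. Printed CPM values use TMM over all 18 libraries. Where an accession was at or under 3 counts in each library, the fold is a bound against that floor and the fitted fold is not printed. Shares of the deposited counts cover counting error only. Labels call the replicates biological, without naming plants, so p-values measure the spread between these samples.

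Lists were drawn from words in the deposited descriptions and from domain names in the deposited family column. The SCW orthologs are the study's list of 68. Members and lists were chosen with earlier results of these data known, and list words were revised after seeing which protein names they matched. Named genes are the SCW orthologs, up to 3 lowest and 3 highest called genes of each list or family (mean count of at least 100, no overlap), the 10 lowest and 10 highest over all genes by that rule, and the 10 called genes with the highest mean FPKM in each accession.

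Alternatives were DESeq2 1.42.0, RLE and upper-quartile scaling, other count filters, no fold limit, limma 3.58.1 on log2 FPKM with a pseudocount of 1 or 0.1 (genes reaching an FPKM of 1 in 3 libraries), all 18 libraries in a fit, the replicate number as a block, other floors, and each library left out. The fits were tested on simulated data. There edgeR recovered 14 of 50 genes changed 2-fold, 38 of 50 changed 4-fold, and 45 of 50 changed 8-fold, and called 8 unchanged genes. DESeq2 recovered 20, 45, and 47 and called 53 unchanged genes. In the simulation 50 of 21973 genes were changed at each fold size, whereas 21.1% of tested genes were called in the data. A 2-fold change lies at the fold limit itself. These recoveries therefore need not hold for the data. A gene not called near the fold limit may still differ. 1 gene that the naming rule takes is not reported here. Python 3.11.15 with pandas 2.3.3, numpy 2.4.6, and matplotlib 3.10.9 made the tables and plots.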

Additional observations from a re-analysis of the deposited data

Results flagged for a closer look

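The accession effect at 20 DAP differed from that at 5 DAP for 3366 of 24259 tested genes (13.9%), by edgeR's contrast between the stages in a fit of all 18 libraries. Against 10 DAP it differed for 2671 genes. These counts single out genes whose difference between hull-less and hulled seed coat was not the same at each stage. Of the genes lower at 20 DAP, 586 differed against both earlier stages, and of the higher ones 358.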

How the results depend on the processing

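Counts depend on the filter and fold limit more than on scaling or tool. With at least 10 counts in each library, which removes genes absent from an accession, 1784 genes were lower, and 2153 and 1749 differed against 5 and 10 DAP. With no fold limit 4601 were higher, 4516 lower, and 5070 differed against 5 DAP. The 94 genes at a floor became 164 with a floor of 10 counts and 258 with a mean count of at least 30. Leaving out 1 library gave 1584 to 1913 higher genes, 2177 to 3541 lower, 2720 to 3830 and 2202 to 3637 differing against 5 and 10 DAP, and 95 to 122 at a floor. Deviations of same-numbered libraries of the accessions had correlations of 0.22, −0.13, and 0.23, against −0.31 to 0.14 for unlike numbers. So few values cannot decide whether the numbers pair the libraries. The replicate block gave 1723 higher and 2744 lower genes and 3183 and 2473 differing against 5 and 10 DAP. No direction reversed among the 448 called genes that could be named. DESeq2 ended 4 of their calls, the block 11, the fit of all 18 libraries 34, limma 7 to 20, and leaving out 1 library 12 to 49. Of 93 list counts of 5 or more, 47 moved by over 1.5 times with the 10-count filter (gibberellin oxidases from 18 to 10 lower, SCW orthologs from 33 to 16) and 24 with no fold limit. The share of higher among called genes was 35.1% to 43.8% over the alternatives. Depth limits the floor genes, whose folds are bounds.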

Other observations

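A selection of groups outside the comparisons above follows, beside 8.37% higher and 12.7% lower among all tested genes. Genes with a 2-oxoglutarate and iron-dependent oxygenase domain, which includes the gibberellin oxidases, gave 24 lower (34.3%) and 2 higher of 70 tested. MatE transporters gave 11 lower (30.6%) and 2 higher of 36. Genes with an SPX domain, a sensor of phosphate state, gave 4 higher (26.7%) and 0 lower of 15. Oligopeptide transporters (OPT) gave 6 higher (31.6%) and 3 lower (15.8%) of 19. The serine carboxypeptidases gave 8 lower (28.6%) and 3 higher of 28. Heat shock proteins gave 6 higher (13.6%) and 2 lower of 44. Shares of the smaller groups rest on few genes. The LRR receptor-like kinases gave 44 higher and 41 lower of 380 with a median of 0.04, close to the background of all genes.

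Abundant higher genes of other functions included a salicylate carboxymethyltransferase (Cp4.1LG10g00700), which forms methyl salicylate, with 1440, 1790, and 1420 CPM in hulled and 3920, 4080, and 4820 CPM in hull-less libraries. A dehydrin (Cp4.1LG11g07990), of a family that protects cells against drying, had 910, 1100, and 1300 against 3150, 2770, and 3410 CPM. In both genes the accessions did not overlap, as was true of 56.9% of the tested genes.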
